A study of Danio rerio with 24 samples.

Results

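The change in the effect of mebendazole (MBZ) between 12 h and 36 h of exposure was measured in zebrafish eyes. The comparison used 16 of the 24 arrays of the series, those from eyes exposed to MBZ for 12 h or 36 h and those from eyes exposed to BBC for 12 h or 36 h, with 4 arrays in each of these 4 groups. BBC is a related benzimidazole whose name ends in a butyl benzoate group, and it stood as the control. Per the study, it did not malform the retinal layers. Both compounds were given at 0.3 μM from 48 hours post-fertilization (hpf), so that eyes were collected at 60 hpf after 12 h and at 84 hpf after 36 h. The fish were of the AB line, every sample was RNA from the pooled eyes of many larvae, and there was no group without a benzimidazole. The effect at 12 h was taken as MBZ minus BBC at 12 h on the log2 scale, the effect at 36 h in the same way, and the change as the effect at 36 h minus the effect at 12 h. The 4 MBZ and 4 BBC arrays at 24 h (72 hpf) did not enter this difference itself and were read as a time point in between, but they shared in the estimate of the spread and in the filter on dim probes.

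MBZ binds the colchicine site of tubulin and blocks the assembly of microtubules, on which dividing cells depend for the spindle and neurons for axons and transport. Per the study, the layers of the zebrafish retina form during a period that includes the earlier of the ages compared here. In the developing eye ganglion cells send axons through the optic nerve, interneurons form synapses and photoreceptors grow outer segments, while the lens fills with crystallins. A value at 36 h minus a value at 12 h therefore also spans this development, and in pooled eyes fewer cells of a type and less RNA per cell cannot be told apart.

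On the 16 arrays, the 75th percentile of the probe signal lay between 880 and 1433, and 67.0% to 76.7% of probes were well above background. All arrays of an exposure time were scanned on a day of their own, so exposure time and scan cannot be told apart, but MBZ and BBC shared each slide. BBC samples lay in positions 1 and 3 of every slide and MBZ samples in positions 2 and 4, so position and compound cannot be told apart. The methods of the study name 4 samples for each condition and do not say whether these came from separate clutches. The p-values measure the spread between these samples, with 1 estimate per probe shared by all 6 groups. The median SD between replicates was 0.30 in both compounds at 12 h. At 36 h it was 0.37 in MBZ eyes and 0.35 in BBC eyes. Where a probe spread more at 36 h, the shared estimate understates the spread of those arrays. A signal below is a probe's background-corrected brightness over the 75th percentile of its own array, on the log2 scale, and arrays are given in the order of replicates 1 to 4.

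Between 12 h and 36 h the effect of MBZ rose most for the transcription factor genes cremb and atf3 and for the Polycomb gene cbx7a among named genes measured well above background. The effect fell for some genes known from neurons of the retina, among them plppr5b and irx4b, and for the crystallin gene cryba2b. The call of cryba2b rests on only part of the MBZ arrays at 36 h, as given below. Of 31506 probes tested, 114 (0.362%) had an MBZ effect at 36 h that differed from that at 12 h at an adjusted p under 0.20, the threshold of the study. The effect became more positive for 36 probes (0.114% of those tested) and more negative for 78 (0.248%). They carried 44 gene names, 19 with a positive and 25 with a negative difference. At an adjusted p under 0.05, 29 probes passed, 11 of them positive and 18 negative. At the threshold of 0.20, bsk146 stood just inside with -1.38 ± 0.35 (SE; adjusted p = 0.199), and grap2b, with 0.54 ± 0.14 (SE; adjusted p = 0.201), and pou4f2, with -0.79 ± 0.20 (SE; adjusted p = 0.201), just outside. The median SE of a difference was 0.20, and its 95% interval reached 0.42 on either side for the median probe. A call needed a larger change than this interval, since bsk146, just inside the threshold, had an unadjusted p of 0.000718 with limma. Changes above 0.42 could therefore also go uncalled for such a probe at this number of arrays. The SD of the effects over all probes was 0.23 at 12 h, 0.21 at 24 h and 0.29 at 36 h.

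An effect was called present at a time at an unadjusted p under 0.05, which 5.03% of all probes met at 12 h and 13.3% at 36 h. By this reading, 83 of the 114 probes had a late effect, present at 36 h and not at 12 h, of which 31 were higher and 52 lower in MBZ eyes at 36 h. These are called late rises and late falls below, which describes the effect of MBZ against BBC and not the signal with age. Not present at 12 h means only that this p was not under 0.05, and no effect of 0 was shown. For 3 late rises and 1 late fall the MBZ and BBC arrays did not overlap at 12 h. In filip1l, for example, MBZ was already the higher there. In 23 probes the effect was present at both times with opposite signs, and in 8 it was present at 12 h only. No called probe had an effect that grew or shrank with 1 sign. All 83 late probes also passed the adjusted threshold at 36 h, and 21 of the 23 reversed ones did, but only 4 of the reversed ones passed it at 12 h and 3 at both times. Since the difference and the 2 effects come from the same arrays, the classes sort the called probes and are no further test.

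**Figure D1:**
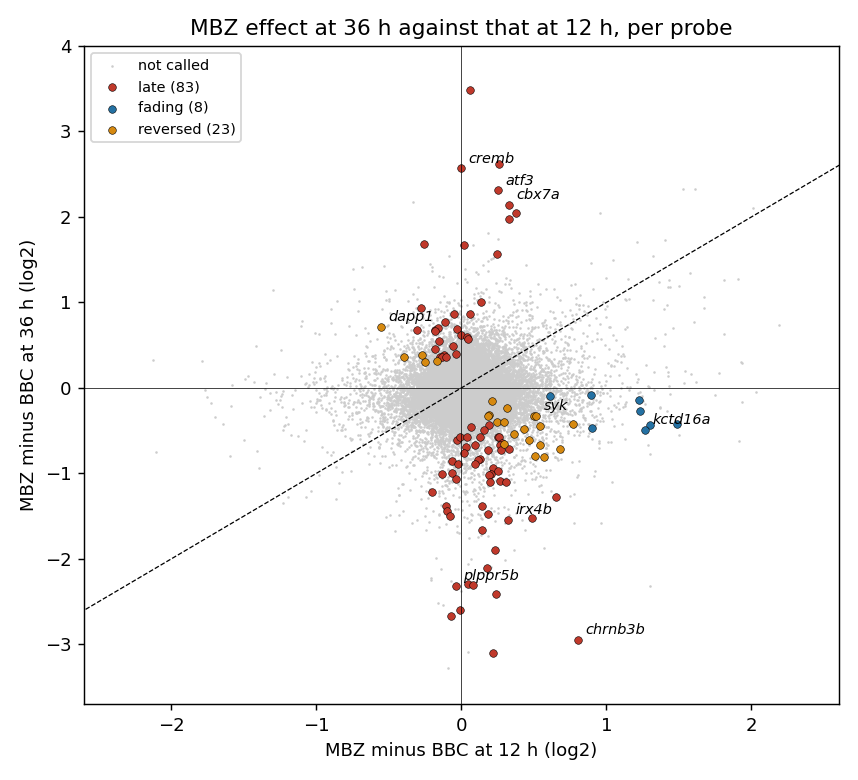
MBZ minus BBC at 36 h (y axis, log2) against MBZ minus BBC at 12 h (x axis, log2) for every tested probe; grey points were not called, coloured points were called for the difference, and the dashed line marks equal effects. Most called probes lie near 0 on the x axis and away from 0 on the y axis, and none lies near the dashed line; 1 probe lies outside the axes.

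The effect at 36 h was wider in reach than the difference. At an adjusted p under 0.20, 101 probes (0.321%) were called at 12 h and 1770 (5.62%) at 36 h. Of the 1770, 1603 had no effect present at 12 h. The difference itself passed for only 104 of the 1770, the 83 late probes and 21 of the reversed ones. For the other 1666 neither a late start nor another change of the effect was shown by the test of the difference. Of the 101 probes called at 12 h, 82 had an effect of the same sign at 36 h and 58 were called there as well, 55 of them with the same sign.

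Among named late rises well above background, 2 genes of the bZIP transcription factors led, cremb, a cAMP-responsive element modulator, and atf3, which is induced by many stresses and in neurons by axon injury. At 36 h the signal of cremb was -0.51, 0.34, 0.05 and 0.20 in MBZ eyes and -2.38, -2.69, -2.47 and -2.65 in BBC eyes. At 12 h it was -3.07, -2.97, -3.097 and -3.57 in MBZ eyes and -3.27, -3.15, -3.11 and -3.17 in BBC eyes. The 4 MBZ arrays at 36 h lay above all others, while at 12 h both compounds overlapped. The effect of MBZ was -0. at 12 h, 1.29 at 24 h and 2.57 at 36 h, and the difference between 36 h and 12 h was 2.57 ± 0.23 (SE; adjusted p = 1.44e-05). A second cremb probe gave 2.36 ± 0.32 (SE; adjusted p = 0.00187).

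The signal of atf3 at 36 h was 2.33, 2.97, 2.63 and 2.99 in MBZ eyes and 0.29, 0.42, 0.63 and 0.34 in BBC eyes. At 12 h it was 0.16, -0.30, 0.04 and -0.12 in MBZ eyes and -0.13, -0.53, -0.34 and -0.25 in BBC eyes. The groups were apart at 36 h and overlapped at 12 h. The effect was 0.26 at 12 h, 1.40 at 24 h and 2.31 at 36 h, with a difference of 2.06 ± 0.21 (SE; adjusted p = 2.98e-05). A list gene is counted as called here and below where any of its probes was. By this count, 19 of all 9792 named genes were called with a positive and 25 with a negative difference. These counts are the background for each list. All lists were chosen with earlier results of these data known, so their counts are a description and no test. Of the 29 tested genes of the immediate early and AP-1 list, cremb and atf3 were the 2 called for the difference, none was called with a negative one, and the median difference of the list was 0., against 0.04 over all 9792 named genes.

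Next came cbx7a, a chromobox subunit of the Polycomb repressive complex. Its signal at 36 h was 1.13, 2.39, 2.01 and 1.87 in MBZ eyes and -0.39, -0.69, 0.25 and -0.34 in BBC eyes, and at 12 h -0.87, -0.34, -0.82 and -0.71 in MBZ eyes and -1.01, -1.22, -0.77 and -1.06 in BBC eyes. The ranges were apart at 36 h and overlapped at 12 h, where the MBZ arrays were mostly the higher ones. The effect was 0.33 at 12 h, 0.79 at 24 h and 2.14 at 36 h, a difference of 1.81 ± 0.30 (SE; adjusted p = 0.0186), and a second probe gave 1.67 ± 0.28 (SE; adjusted p = 0.0231).

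Late rises also included genes known from immune cells. The signal of lgals9l1, a galectin, at 36 h was -2.44, -1.56, -2.03 and -1.83 in MBZ eyes and -3.47, -3.61, -3.65 and -3.41 in BBC eyes, and at 12 h -3.55, -3.56, -3.64 and -3.41 in MBZ eyes and -4.21, -3.56, -3.75 and -3.63 in BBC eyes. MBZ arrays stood above the BBC arrays at 36 h and overlapped them at 12 h, and the effect was already 1.14 at 24 h. The difference between 36 h and 12 h was 1.32 ± 0.25 (SE; adjusted p = 0.0461). The gene for the Fc receptor gamma chain-like adaptor, fcer1gl, had an effect of -0.12 at 12 h, 0.18 at 24 h and 0.38 at 36 h, with a difference of 0.50 ± 0.11 (SE; adjusted p = 0.12). For rgs18, a regulator of G protein signalling known from mammalian blood cells, the effect was -0.30, 0.33 and 0.67 at 12, 24 and 36 h, and the difference 0.98 ± 0.21 (SE; adjusted p = 0.0876). The interferon-inducible gene ifi27.1 gave -0.18, 0.27 and 0.68, with a difference of 0.86 ± 0.20 (SE; adjusted p = 0.134), and its second probe, at 0.86, missed the threshold (adjusted p = 0.221).

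Of the 27 tested genes of the macrophage and microglia list, lgals9l1 and fcer1gl were called for the difference and none with a negative one, against 19 positive and 25 negative of all 9792 named genes. The difference was above 0 in 23 of the 27, against 58.3% of all named genes, and its median was 0.25. At 36 h 12 members were called higher in MBZ eyes and 0 lower, against 471 and 170 of all 9792 named genes. At 12 h 2 were called higher and 1 lower, against 28 and 3 of the 9792. The summed signal of the list, in units of the 75th percentile of the array, ranged at 36 h over 21.9 to 25.4 in MBZ eyes and 17.0 to 18.6 in BBC eyes, and at 12 h over 20.2 to 21.2 in MBZ eyes and 18.5 to 19.5 in BBC eyes. The sums did not overlap at either time, and were further apart at 36 h. The median signal over the list, which the brightest genes do not set, overlapped at both times: at 36 h it was -1.79, -1.84, -1.77 and -1.82 on the MBZ arrays and -1.84, -1.95, -1.75 and -1.72 on the BBC arrays, and at 12 h -1.85, -2.05, -1.96 and -1.86 on the MBZ arrays and -2.22, -2.21, -1.98 and -1.90 on the BBC arrays. How far a changed number of such cells took part in the late rises was not tested. The median difference of the MHC class I and interferon list was 0.25, with no member of 17 called.

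A single member of the DNA damage list and a single member of the integrated stress response list were called. The signal of gadd45ba, a growth arrest and DNA damage-inducible gene, at 36 h was 1.002, 1.11, 1.13 and 0.79 in MBZ eyes and 0.33, 0.16, 0.64 and 0.24 in BBC eyes, and at 12 h -0.78, -0.83, -0.60 and -0.72 in MBZ eyes and -0.41, -0.59, -0.76 and -0.45 in BBC eyes. All 4 MBZ arrays were above the BBC arrays at 36 h, whereas at 12 h the ranges overlapped with MBZ mostly lower. The effect was -0.18, -0.05 and 0.67 at 12, 24 and 36 h, a difference of 0.84 ± 0.15 (SE; adjusted p = 0.0267), and its other probes gave 0.45 and 0.46, which missed the threshold (adjusted p = 0.518 and 0.429). It was the only called member among 36 tested genes of the DNA damage and apoptosis list, whose median difference was 0.07, with 7 members already called higher at 12 h, against 28 of all 9792 named genes, and 13 at 36 h, against 471.

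In the integrated stress response, ppp1r15a encodes the subunit that directs the phosphatase of eIF2 alpha. Its signal at 36 h was 3.502, 3.46, 3.17 and 3.39 in MBZ eyes and 3.12, 3.096, 3.09 and 3.03 in BBC eyes. At 12 h it was 2.45, 2.54, 2.68 and 2.59 in MBZ eyes and 3.01, 2.79, 2.70 and 2.75 in BBC eyes. MBZ arrays were all above BBC arrays at 36 h and all below them at 12 h. The effect was -0.25, -0.06 and 0.30 at 12, 24 and 36 h, and the difference 0.55 ± 0.12 (SE; adjusted p = 0.12); its effect at 12 h did not pass the adjusted threshold (adjusted p = 0.754). No other member of the 24 tested genes of that list was called, and none of the 23 heat shock genes was, with medians of 0.06 and -0.02.

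The other named genes with the most positive differences were of mixed kinds. The urea transporter gene slc14a2 gave 1.21 ± 0.28 (SE; adjusted p = 0.127), with a signal at 36 h of -4.61, -4.04, -4.46 and -4.85 in MBZ eyes and -5.44, -4.81, -5.89 and -5.54 in BBC eyes, so that the groups overlapped; its second probe gave 0.34 (adjusted p = 0.792). For filip1l the effect was 0.13, 0.50 and 1.0 at 12, 24 and 36 h, and the difference 0.87 ± 0.16 (SE; adjusted p = 0.0303). For lratd2b the difference was 0.71 ± 0.17 (SE; adjusted p = 0.155). The probe of prr15lb was not well above background in any group except MBZ eyes at 36 h, where its signal was -6.31, -5.89, -5.58 and -3.92. Against a floor for dim signals, this was 2.29-fold higher than in BBC eyes. Its fitted difference of 1.94 ± 0.46 (SE; adjusted p = 0.155) rests on signals not well above background at 12 h. Here and below, such a fold sets the mean of the brighter group against a floor on each array. That floor is the higher of the dim signal and the lowest signal well above background. The lowest such signal is the most lenient limit, so the fold is no strict minimum. Beyond these, baiap2l1a, tlcd1, sulf2a and chodl, named after their values were seen, had late positive differences of 0.54 to 0.70.

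**Figure D2:**
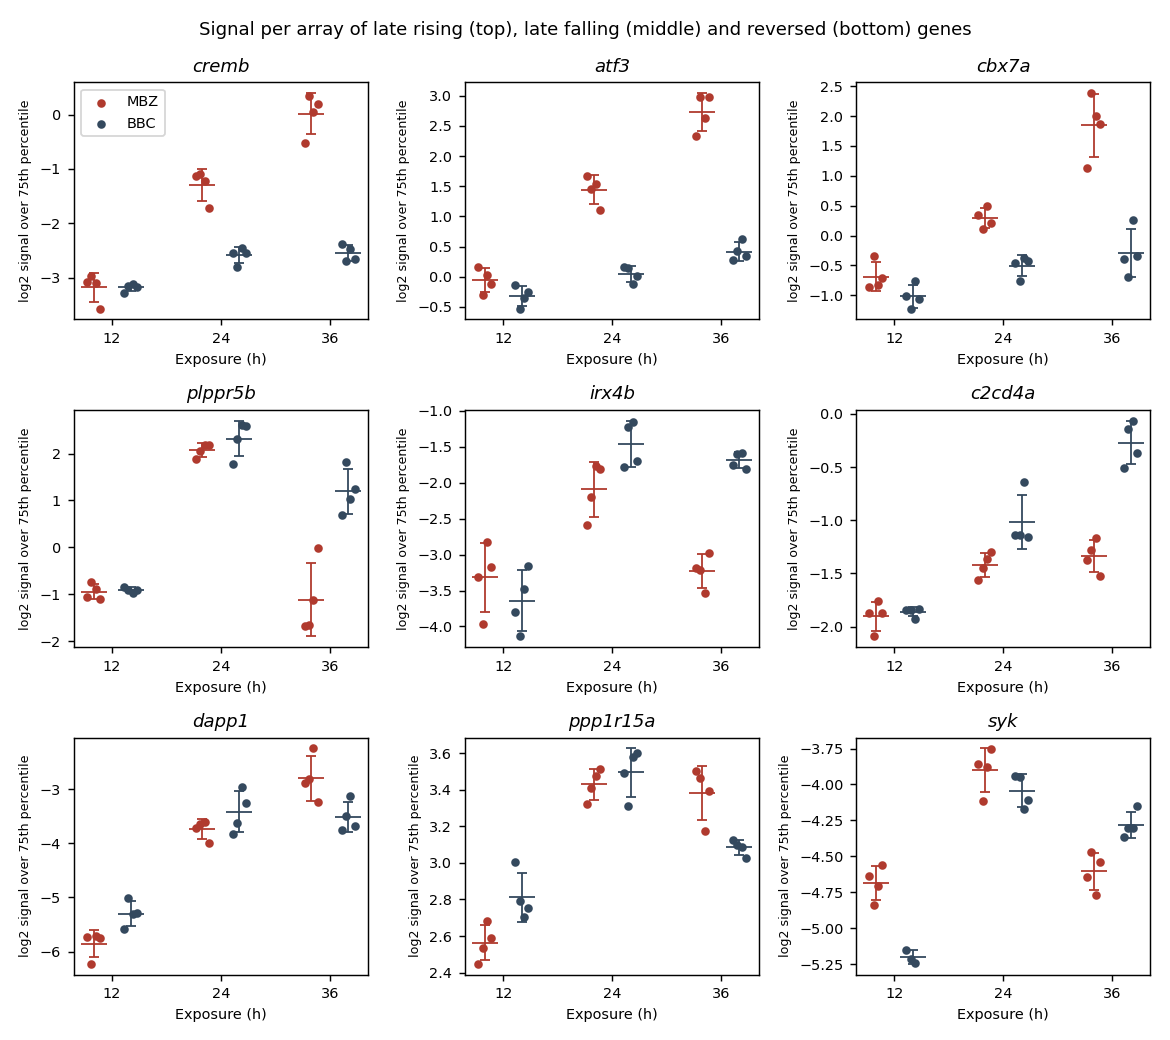
Signal on each array (points; log2 over the 75th percentile of the array) at 12, 24 and 36 h in MBZ eyes (red, left of each pair) and BBC eyes (dark, right), with the mean and SD of the group (bars; n = 4, or 3 where a spot was left out). In the top row MBZ stands apart at 36 h and little at 12 h, in the middle row MBZ lies below BBC at 36 h and not at 12 h, and in the bottom row the order of the compounds at 36 h is opposite to that at 12 h.

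The named late falls included genes known from ganglion cells and other neurons. The signal of plppr5b, a phospholipid phosphatase-related protein of neurons, at 36 h was -1.67, -1.66, -1.13 and -0.01 in MBZ eyes and 0.69, 1.82, 1.03 and 1.24 in BBC eyes. At 12 h it was -1.05, -0.75, -0.90 and -1.09 in MBZ eyes and -0.85, -0.90, -0.98 and -0.91 in BBC eyes. MBZ lay below BBC on every array at 36 h, with replicate 4 of MBZ closest to the BBC arrays, and the compounds overlapped at 12 h. The effect was -0.04, -0.24 and -2.31 at 12, 24 and 36 h, a difference of -2.27 ± 0.39 (SE; adjusted p = 0.0231). Over the same 24 h of age the signal rose by 2.104 in BBC eyes (adjusted p = 1.3e-06), while in MBZ eyes it changed by -0.17 (adjusted p = 0.604). These changes compare the end points only. In MBZ eyes the mean signal was -0.95 at 12 h, 2.08 at 24 h and -1.12 at 36 h.

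Both tested Iroquois homeobox genes of the irx4 pair, transcription factors whose mouse counterpart is expressed in retinal ganglion cells, had a late effect, lower in MBZ eyes. For irx4b the signal at 36 h was -3.19, -3.21, -3.54 and -2.97 in MBZ eyes and -1.76, -1.60, -1.58 and -1.81 in BBC eyes, and at 12 h -3.32, -3.97, -2.82 and -3.17 in MBZ eyes and -3.80, -4.14, -3.47 and -3.15 in BBC eyes. Groups were well apart at 36 h, with MBZ near its level at 12 h, and overlapped at 12 h. The effect was 0.32, -0.63 and -1.54 at the 3 times, a difference of -1.86 ± 0.33 (SE; adjusted p = 0.0303), and other probes of irx4b gave -1.01 and -1.14 (adjusted p = 0.357 and 0.299). For irx4a the signal at 36 h was 2.34, 1.95, 1.61 and 1.70 in MBZ eyes and 2.71, 2.93, 2.71 and 2.84 in BBC eyes, groups that did not overlap, and the difference was -0.99 ± 0.22 (SE; adjusted p = 0.114). From 12 h to 36 h the signal of irx4b changed by 0.09 in MBZ eyes (adjusted p = 0.751) and rose by 1.95 in BBC eyes. For irx4a these changes were -0.25 (adjusted p = 0.168) and 0.74. In between, at 24 h, the mean signal of irx4b in MBZ eyes was -2.09, against -3.32 at 12 h and -3.23 at 36 h.

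The gene for a beta3 subunit of the nicotinic acetylcholine receptor, chrnb3b, whose zebrafish promoter is used to mark retinal ganglion cells, was well above background on all arrays of 1 group only, BBC eyes at 36 h. There its signal was -4.50, -4.95, -4.21 and -5.22, while MBZ eyes at 36 h, at -7.24, -8.45, -7.22 and -7.75, were not well above background on any array. Against the floor for dim signals, MBZ eyes at 36 h were 4.48-fold lower, which is no strict minimum. At 12 h and 24 h the signal was at or near the background in both compounds, and no fold could be given. The fitted difference of -3.75 ± 0.69 (SE; adjusted p = 0.035) includes those dim signals.

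The RNA-binding protein gene rbpms2b, of a family that marks retinal ganglion cells, had a signal at 36 h of 0.27, 0.44, 0.34 and 0.09 in MBZ eyes and 1.004, 0.96, 0.69 and 1.09 in BBC eyes, and at 12 h of 0.11, -0.29, -0.06 and 0.12 in MBZ eyes and -0.12, -0.54, -0.48 and -0.18 in BBC eyes. MBZ was below BBC on all arrays at 36 h and mostly above it at 12 h. The effect was 0.30, -0.28 and -0.65 at 12, 24 and 36 h, and the difference -0.95 ± 0.19 (SE; adjusted p = 0.0526), with a second probe at -0.66 (adjusted p = 0.266). In the ganglion cell and axon list, plppr5b and rbpms2b were called with a negative and atf3 with a positive difference out of 27 tested genes, against 25 and 19 of all 9792 named genes. As the list was chosen with earlier results of these data known, this is no test. The call of rbpms2b was not by its brightest probe. The median difference of the list was -0.05, and the difference was above 0 in 11 of the 27, against 58.3% of all named genes. At 36 h 6 members were called lower, against 170 of all 9792 named genes, and 1 higher, against 471. Out of 53 tested transcription factors of retinal progenitors and neurons, irx4a and irx4b were called, both negative, against 25 of all 9792 named genes. The call of irx4b was not by its brightest probe. The median of that list was -0.09, with 19 of the 53 differences above 0. The genes pou4f4, of the POU class IV factors of sensory neurons, with 2 called probes at -0.73 and -0.78, and hmx1, a homeobox gene of the eye, at -0.57, were named after their values were seen.

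Other named channel and receptor genes of neurons were of different classes, asic4b a late fall, kcnn1b a reversal and kctd16a a fading effect. The acid-sensing ion channel gene asic4b had a signal at 36 h of -3.49, -3.21, -3.26 and -2.68 in MBZ eyes and -2.13, -2.22, -2.04 and -2.51 in BBC eyes, with no overlap, and at 12 h of -3.92, -4.63, -3.94 and -4.21 in MBZ eyes and -4.45, -4.47, -4.61 and -4.04 in BBC eyes, with overlap. Its difference was -1.16 ± 0.27 (SE; adjusted p = 0.148), and a second probe at -1.12 lay just past the threshold (adjusted p = 0.201). The signal of asic4b rose with age in both compounds, by 1.01 in MBZ eyes and 2.17 in BBC eyes. For kcnn1b, a calcium-activated potassium channel gene, the effect was 0.44, -0.05 and -0.48 at 12, 24 and 36 h, with a difference of -0.91 ± 0.22 (SE; adjusted p = 0.169). For kctd16a, an auxiliary subunit of the GABA B receptor, both compounds were below the limit of detection at 12 h, so its fitted effect of 1.27 there has no fold, and at 36 h its effect was -0.49. None of the 33 tested genes of the synapse and neurotransmission list was called, and their median difference was -0.03.

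In the lens, the beta crystallin gene cryba2b was called. Its signal at 36 h was 4.90 and 5.10 in MBZ eyes, on replicates 1 and 3, the spots of the other 2 arrays being uneven and left out of the fit, and 6.43, 6.50, 6.45 and 6.35 in BBC eyes. At 12 h it was 5.31, 5.42, 5.85 and 5.37 in MBZ eyes and 5.97, 5.60, 5.43 and 5.33 in BBC eyes. The measured MBZ arrays at 36 h lay below every BBC array, and the groups overlapped at 12 h. The difference was -1.34 ± 0.26 (SE; adjusted p = 0.0537). No other of the 40 tested lens genes was called for the difference, although 12 were called lower in MBZ eyes at 36 h and 1 higher, against 170 and 471 of all 9792 named genes, and none either way at 12 h. The median difference over the list was -0.66, against 0.04 over all named genes, with medians of the effect of -0. at 12 h, 0.25 at 24 h and -0.64 at 36 h. The gamma crystallin genes crygm5, at -2.099, and crygmxl1, at -1.68, had the most negative differences of the list and did not pass (adjusted p = 0.688 and 0.651). The median signal of the list on each array at 36 h was 0.63, 1.83, 1.23 and 2.67 in MBZ eyes and 3.03, 2.28, 2.97 and 2.81 in BBC eyes, so that the MBZ arrays were far apart from each other and replicate 4 reached the BBC range. Replicates 2 and 4, whose cryba2b spots were left out, had the higher lens medians among the MBZ arrays. Without replicate 1 of MBZ at 36 h, cryba2b was not called.

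Several of the other strongly negative differences came with low signals in MBZ eyes at 36 h. The angiopoietin-like gene angptl2a had a signal at 36 h of -8.73, -8.34, -8.31 and -8.18 in MBZ eyes, not well above background on any array. In BBC eyes it was -5.11, -5.67, -5.96 and -6.14, well above background on 3 of the 4 arrays. Against the floor for dim signals, angptl2a was 2.24-fold lower in MBZ eyes, which is no strict minimum. At 12 h its signal was -5.53, -5.67, -6.21 and -5.94 in MBZ eyes and -5.97, -5.39, -5.60 and -6.10 in BBC eyes, and the fitted difference was -2.596 ± 0.35 (SE; adjusted p = 0.00187). With the normalized values of the authors angptl2a was not called, and over the alternatives its difference was as small as -0.09. The signal of xrn2, a nuclear exoribonuclease, at 36 h was -2.38, -2.43, -2.30 and -0.95 in MBZ eyes and -1.12, -0.59, -0.48 and -0.32 in BBC eyes. Of the MBZ arrays of xrn2 at 36 h, replicates 1 to 3 were low and replicate 4 lay within the BBC range. Its difference was -1.28 ± 0.32 (SE; adjusted p = 0.188), and a second probe gave -0.49 (adjusted p = 0.27). For fam210ab, a mitochondrial protein in mammals, the signal at 36 h was -6.71, -6.87, -6.66 and -4.83 in MBZ eyes and -4.49, -3.72, -4.0 and -3.67 in BBC eyes, again with replicate 4 of MBZ nearest to BBC. Its difference was -2.34 ± 0.44 (SE; adjusted p = 0.0392), but the other fam210ab probe gave 0.08 (adjusted p = 0.942), so the 2 probes of this gene disagreed. The SD of the called fam210ab probe in MBZ eyes was 0.96 at 36 h and 0.25 at 12 h, which the shared estimate behind the SE does not separate. The signal of c2cd4a at 36 h was -1.37, -1.28, -1.17 and -1.53 in MBZ eyes and -0.51, -0.15, -0.06 and -0.37 in BBC eyes, groups that did not overlap, with a difference of -1.03 ± 0.17 (SE; adjusted p = 0.0186). Unlike the genes before it, c2cd4a rose with age in both compounds, by 0.56 in MBZ eyes and 1.59 in BBC eyes. Also negative, and named after their values were seen, were abcd4, tmem176l.4 and kctd15a, with differences between -0.96 and -0.63. For iglon5, also named after its value was seen, the fitted difference was -2.65, MBZ eyes averaging -8.57 and BBC eyes -6.15 at 36 h, but it was well above background on every array only at 24 h, when MBZ eyes averaged -4.56 and BBC eyes -4.57.

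Of the 114 probes, 67 had no gene name in the table used. The most positive of them, probe A_15_P167696, had a signal at 36 h of -4.15, -3.48, -3.83 and -3.64 in MBZ eyes and -6.45, -7.89, -6.67 and -8. in BBC eyes, where only 1 array was well above background, and its difference was 3.42 ± 0.65 (SE; adjusted p = 0.0434). Next were A_15_P402330, at 1.65, and A_15_P109600, at 1.65. The most negative one, A_15_P487000, had a signal at 36 h of -3.68, -4.08, -3.40 and -1.33 in MBZ eyes and -1.19, 0.58, 0.12 and 0.41 in BBC eyes, with replicate 4 of MBZ and replicate 1 of BBC nearest to each other, and its difference was -3.32 ± 0.57 (SE; adjusted p = 0.0231). It was followed by A_15_P101498, at -2.59, not well above background in MBZ eyes at 36 h, and A_15_P179696, at -2.38.

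The effect at 24 h was read for the same probes. Its arrays were not in the difference, but they helped to set the spread and the filter behind the calls, and without them 67 probes were called, 53 of them among the 114. Of the 31 late rises, 24 had a positive effect at 24 h and 7 were called higher there, against 0.289% of all probes. All 4 MBZ arrays lay above all 4 BBC arrays at 24 h for 10 of them, against 1.68% of all probes. Of the 52 late falls, 37 had a negative effect at 24 h, and the MBZ arrays lay below all BBC arrays for 7, against 1.32%, but 0 were called. The median effect of the late rises was -0.04, 0.21 and 0.70 at 12, 24 and 36 h, and that of the late falls 0.14, -0.09 and -1.005. Tested directly, the effect at 36 h differed from that at 24 h for 20 probes (0.0635%), 17 of them among the 114. The effect at 24 h differed from that at 12 h for 0 with limma. There 669 of 31507 probes had an unadjusted p under 0.05, a share below 0.05 itself. For the difference between 36 h and 12 h that count was 2647.

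For single genes the signals at 24 h were read as a description, and no test compared the timing between genes. At 24 h the signal of cremb was -1.13, -1.09, -1.22 and -1.73 in MBZ eyes and -2.55, -2.79, -2.45 and -2.54 in BBC eyes, and that of atf3 was 1.67, 1.46, 1.53 and 1.11 in MBZ eyes and 0.15, 0.14, -0.13 and 0.02 in BBC eyes. For both genes the MBZ arrays were already above all BBC arrays, and the effects were larger at 36 h. The signal of gadd45ba at 24 h was 0.46, 0.27, 0.29 and 0.24 in MBZ eyes and 0.51, 0.33, 0.31 and 0.33 in BBC eyes, and that of plppr5b was 1.88, 2.05, 2.19 and 2.19 in MBZ eyes and 1.78, 2.32, 2.6 and 2.58 in BBC eyes. These genes still overlapped between the compounds at 24 h, and plppr5b was at its highest then in both. The signal of irx4b was -2.59, -2.19, -1.77 and -1.81 in MBZ eyes and -1.78, -1.22, -1.15 and -1.69 in BBC eyes, and that of lgals9l1 was -2.16, -2.52, -2.80 and -2.89 in MBZ eyes and -3.46, -3.99, -3.88 and -3.60 in BBC eyes. For irx4b the groups overlapped, replicate 3 of MBZ lying just above replicate 1 of BBC, and for lgals9l1 MBZ lay above BBC throughout. The difference between the effects at 36 h and 24 h was 1.28 for cremb, 0.92 for atf3 and -2.07 for plppr5b (adjusted p = 0.0868, 0.254 and 0.0956), so that it passed for cremb and plppr5b and not for atf3. A pass for cremb beside a miss for atf3 does not show that the 2 genes differ in timing. Against the floor for dim signals, probe A_15_P167696 was 3.74-fold higher in MBZ eyes at 24 h, where no BBC array was well above background.

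**Figure D3:**
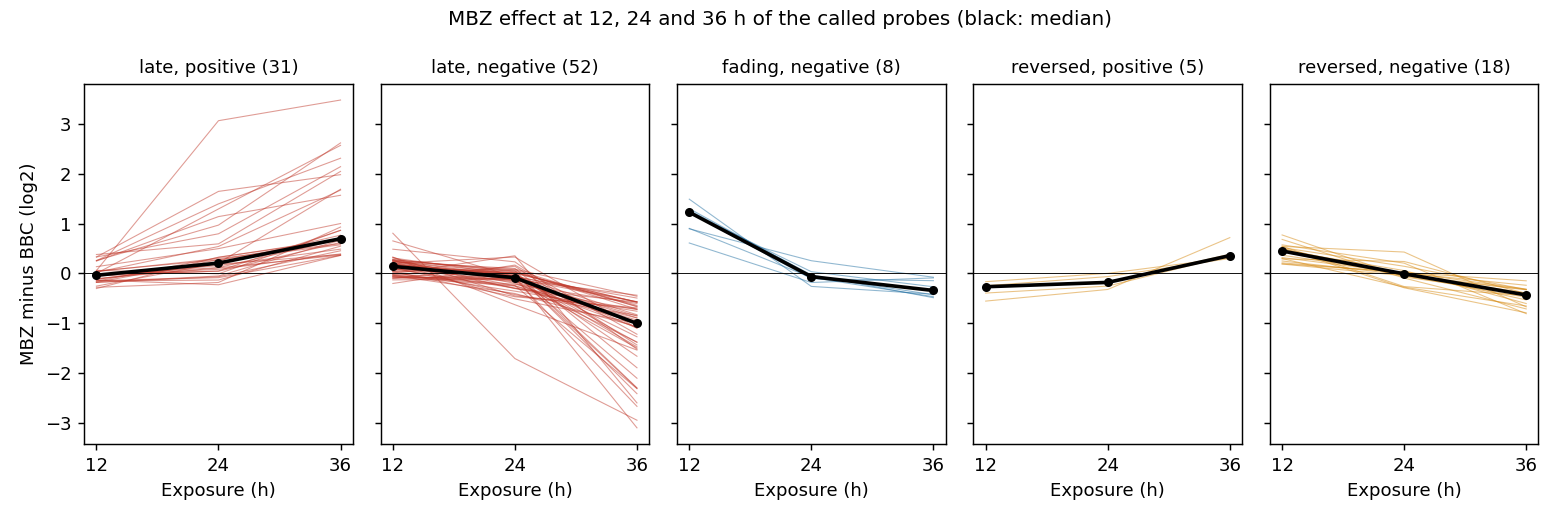
MBZ minus BBC (y axis, log2) at 12, 24 and 36 h (x axis) for each called probe (thin lines) and their median (black) in 5 panels by class and sign of the difference. Late rises had a median of 0.21 at 24 h and late falls one of -0.09, against 0.70 and -1.005 at 36 h.

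The 23 reversals were smaller in size. The 5 positive ones had a median effect of -0.27 at 12 h and 0.36 at 36 h, and the 18 negative ones 0.45 at 12 h and -0.43 at 36 h. Choosing probes by the difference itself draws these medians apart. At 24 h the medians were -0.18 and -0.01, and 1 of the 5 and 9 of the 18 had the sign of 36 h. The gene for the tyrosine kinase Syk, which acts below immune receptors, was among the few called at both times. Its signal at 36 h was -4.64, -4.47, -4.77 and -4.54 in MBZ eyes and -4.36, -4.31, -4.30 and -4.15 in BBC eyes. At 12 h it was -4.64, -4.84, -4.71 and -4.56 in MBZ eyes and, on 3 arrays of BBC eyes, -5.15, -5.22 and -5.24, the spot of replicate 1 being uneven and left out of the fit. MBZ lay below BBC on all arrays at 36 h and above it on all measured arrays at 12 h, and the difference was -0.84 ± 0.13 (SE; adjusted p = 0.0186). The signal of dapp1, an adaptor of phosphoinositide signalling, at 36 h was -2.89, -2.80, -2.24 and -3.24 in MBZ eyes and -3.75, -3.501, -3.12 and -3.67 in BBC eyes, and at 12 h -5.73, -6.23, -5.71 and -5.75 in MBZ eyes and -5.59, -5.02, -5.30 and -5.28 in BBC eyes. The groups overlapped at 36 h and were apart at 12 h with MBZ the lower, and the difference was 1.27 ± 0.29 (SE; adjusted p = 0.125).

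Apart from rbpms2b, ppp1r15a and kcnn1b, given above, the remaining reversals with a name had small effects or dim signals. The chemokine gene cxcl14 had an effect of -0.17 at 12 h and 0.31 at 36 h, a difference of 0.48 ± 0.11 (SE; adjusted p = 0.142), and its other probes gave 0.36 and 0.30, neither of them called. For pnisr the effect was 0.19 and -0.31, with a difference of -0.51 ± 0.11 (SE; adjusted p = 0.115). For cnot9, a subunit of the deadenylase complex, the effect was 0.21 and -0.15, with a difference of -0.36 ± 0.09 (SE; adjusted p = 0.155), and a second probe gave -0.09. For map3k7cl the effect was 0.54 and -0.45, and the difference -0.99 ± 0.22 (SE; adjusted p = 0.125). Dim probes completed the set. For the hepcidin gene hamp, well above background on 2 MBZ arrays and 1 BBC array at 12 h, the difference was -1.21 ± 0.30 (SE; adjusted p = 0.182), with a second probe at -0.44. The kinase gene bsk146, well above background on 1 BBC array at 12 h, had an effect of 0.57 at 12 h and -0.81 at 36 h and a second probe at -1.28 (adjusted p = 0.551).

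The 8 fading probes were all higher in MBZ eyes at 12 h, by 0.61 to 1.49, with a median effect of -0.07 at 24 h and -0.34 at 36 h. They were also dim at the age at which the effect was seen. For 7 of the 8 no BBC array at 12 h was well above background, and for 3 no array of either compound was. The median change of their signal with age was 1.14 in MBZ eyes and 2.598 in BBC eyes. The only one with a gene name was kctd16a, whose second probe had a difference of -0.52 (adjusted p = 0.834).

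A change of effect is also the change with age in MBZ eyes minus that in BBC eyes, and the called probes were read this way as a description. Since they were chosen for this difference, a negative one by itself makes an increase in BBC eyes or a decrease in MBZ eyes more frequent, and the shares of all probes are given only as the background. Of the 78 probes with a negative difference, 56 were higher at 36 h than at 12 h in BBC eyes at an adjusted p under 0.05, against 34.5% of all probes. In MBZ eyes 19 were higher with age, against 32.4%, and 30 lower, against 32.0%. For 29 the increase passed in BBC eyes and no change passed in MBZ eyes, as for plppr5b and irx4b. For 16 only a decrease in MBZ eyes passed, as for angptl2a. These readings set 36 h against 12 h and leave out 24 h. For plppr5b and irx4b the mean signal in MBZ eyes was higher at 24 h than at either end. Of the 36 probes with a positive difference, 31 were higher with age in MBZ eyes and 19 in BBC eyes, 19 of them in both.

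**Figure D4:**
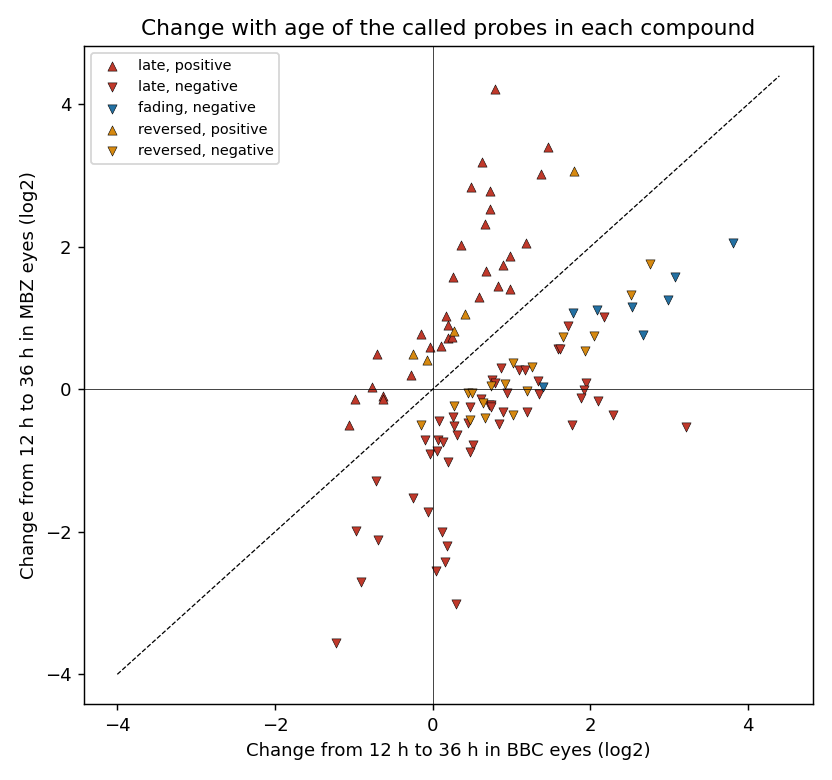
Change between 12 h and 36 h in MBZ eyes (y axis, log2) against the change in BBC eyes (x axis, log2) for the 114 called probes, with the class by colour and the sign of the difference by the direction of the triangle; the dashed line marks equal change. Negative differences lie below the line, and 56 of 78 were higher with age in BBC eyes.

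Effects that were present with 1 sign at both times gave the other side of the comparison. Among named genes called at 12 h and 36 h, the 6 with the smallest p at 12 h were all higher in MBZ eyes. Choosing them by the effect at 12 h by itself draws the difference downward. The intervals below do not allow for this choice and are no test of a decline. For fosab, a Fos subunit of the AP-1 factor, the effect was 1.42, 1.01 and 1.18 at 12, 24 and 36 h, and the difference between 36 h and 12 h was -0.24, with a 95% interval of -0.58 to 0.10. The signal of fosab at 36 h was 0.19, 0.64, 0.58 and 0.64 in MBZ eyes and -0.92, -0.68, -0.55 and -0.54 in BBC eyes, and at 12 h 0.12, 0.02, 0.06 and 0.10 in MBZ eyes and -1.35, -1.39, -1.37 and -1.29 in BBC eyes, with no overlap at either time. For stmn4l, of the tubulin-binding stathmins, the effect was 1.32, 1.31 and 1.54, with an interval of the difference of -0.18 to 0.63 and 1 uneven spot of MBZ at 36 h left out. For the ubiquitin ligase gene mdm2 it was 0.79, 1.001 and 0.86, with an interval of -0.22 to 0.37. These intervals leave room for a change of either sign and do not reach the size seen for cremb. The cyclin gene ccng1 had an interval of -0.18 to 0.36 and the cathepsin gene ctsl.1 one of -0.60 to 0.38. For bbc3, which encodes a pro-apoptotic protein and is unrelated to the compound BBC, the effect was 1.90, 1.49 and 1.27, and the interval of -1.19 to -0.08 lay below 0, although the difference did not pass over all probes (adjusted p = 0.523).

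The skeletal muscle and hormone lists had no member called for the difference, and medians furthest from that of all named genes but for the lens. In the skeletal muscle list, 41 of 42 tested genes had a difference below 0, the median difference was -0.82, and none was called. Over the alternatives of processing and the fits without single arrays that median stayed between -1.06 and -0.53. The median effect was 0.46 at 12 h, 0.04 at 24 h and -0.26 at 36 h. The summed signal of the list at 36 h ranged over 168 to 257 in MBZ eyes and 225 to 333 in BBC eyes, and at 12 h over 76.9 to 115 in MBZ eyes and 52.7 to 92.5 in BBC eyes, so that the compounds overlapped at both times. On single arrays the median signal of the list at 12 h was -1.33, -0.65, -1.52 and -1.40 in MBZ eyes and -2.46, -2.07, -1.09 and -1.11 in BBC eyes, the lowest values being replicates 1 and 2 of BBC, which lay on 1 slide. How much muscle was taken along with the eyes, and its part in the called differences, was not tested.

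The list of pituitary and hypothalamus hormones had a median of the other sign, with 27 of 29 differences above 0, a median of 0.38 and none called, while 14 members were called higher in MBZ eyes at 36 h, against 471 of all 9792 named genes, and none at 12 h, against 28. Its summed signal at 36 h ranged over 47.1 to 59.8 in MBZ eyes and 37.9 to 47.6 in BBC eyes, and at 12 h over 37.6 to 46.6 in MBZ eyes and 40.2 to 46.5 in BBC eyes. The photoreceptor list had 32 of 38 differences below 0, a median of -0.23 and no call at either time, with a summed signal at 36 h of 390 to 676 in MBZ eyes and 446 to 681 in BBC eyes, and at 12 h of 75.6 to 84.6 in MBZ eyes and 55 to 87.5 in BBC eyes. The lens list summed at 36 h to 660 to 913 in MBZ eyes and 1081 to 1514 in BBC eyes, and at 12 h to 880 to 1276 in MBZ eyes and 936 to 1390 in BBC eyes, so that the defining markers of the labelled tissue were present in all 4 groups. The red blood cell list had a median difference of -0.08 and no call in 22 genes.

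**Figure D5:**
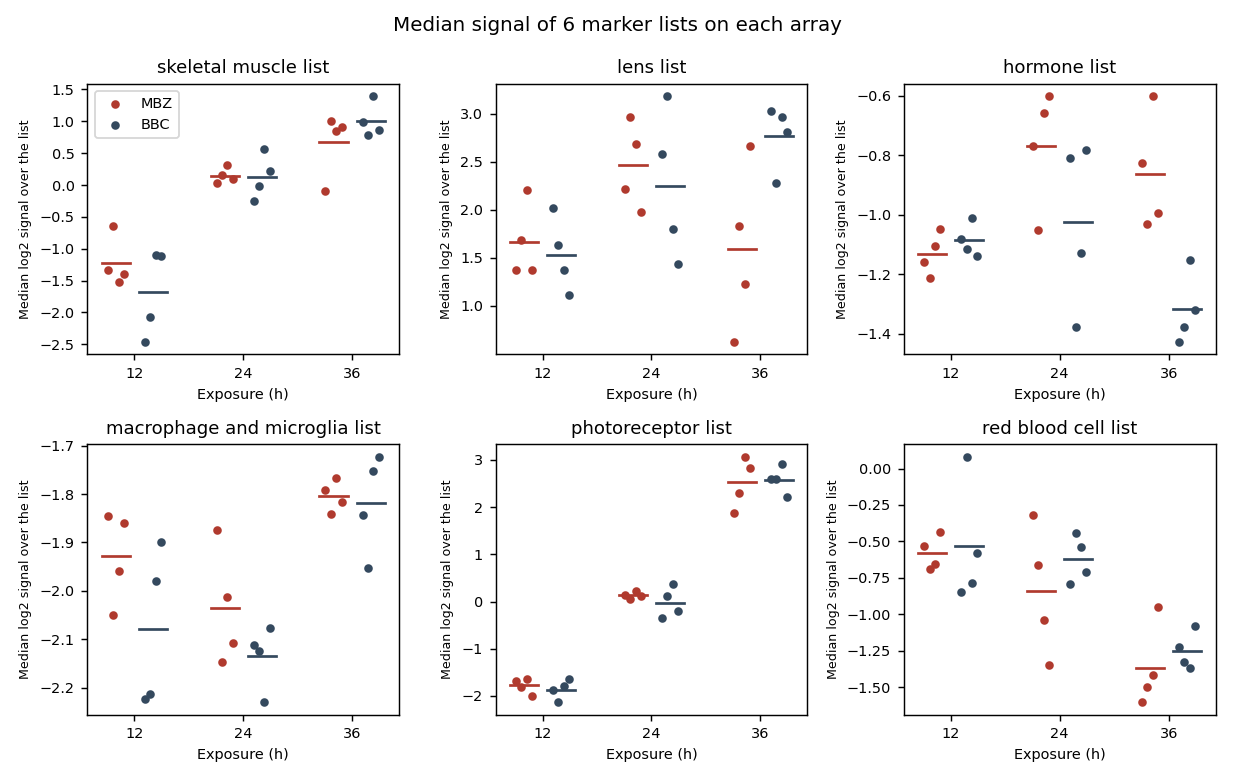
Median signal over the tested genes of 6 marker lists (y axis, log2 over the 75th percentile) on each array (points) at 12, 24 and 36 h, with the mean of 4 arrays (bars), for MBZ (red, left) and BBC (dark, right). The lens arrays of MBZ spread widely at 36 h, and hormone arrays of MBZ lie above those of BBC at 36 h and not at 12 h.

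No gene was called for the difference in the lists for processes close to the target of MBZ. In the DNA replication list, 38 of 43 differences were above 0, with a median effect of -0.17 at 12 h and -0.03 at 36 h and a median difference of 0.15. The median difference was 0.03 for 34 mitosis genes, 0.09 for 22 genes of tubulin and its folding, and 0.09 for 6 stathmins. Of the stathmins 2 were called higher at 12 h and 2 at 36 h, against 28 and 471 of all 9792 named genes. Of the tubulin list 1 was called lower at 12 h, against 3 of the 9792, and none either way at 36 h. For genes of neuronal differentiation and progenitor signalling the median was 0.16, with 25 of 32 above 0. For Müller glia and the injury response it was 0.17, with 4 of 24 called higher at 36 h, against 471 of all 9792 named genes, and none at 12 h, against 28. The melanin, visual cycle, circadian clock, lipid and matrix lists had medians between -0.09 and 0.01.

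The number of called probes depended on the background correction and on single arrays. With the normexp background correction in place of that of the scanner software, 1 probe passed, that of atf3. The number was 589 without replicate 4 of MBZ at 36 h, 203 without replicate 3 of BBC at 36 h, and between 45 and 132 without any other of the 16 arrays. All 114 kept their sign in each of these fits without an array. They were chosen for large differences on the same arrays, so this was nearly fixed in advance and is no test.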

How the data were processed

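RNA from pooled zebrafish eyes was hybridized by the authors to Agilent 1-colour zebrafish arrays, 4 to a slide. The deposited scanner files hold intensity values per spot from Feature Extraction (8.0 per the labels, 10.1 per the file headers), background-corrected by that software. Normalized log2 values deposited by the authors for the same arrays served only as an alternative.

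Each array's processed signals were divided by their 75th percentile over the probe spots and taken to log2. Control spots and spots marked as uneven were left out, saturated spots were kept, spots of a probe were averaged, and probes entered the test where the scanner software marked them significant and well above background on every array of any 1 of the 6 groups. A linear model with 6 groups was fitted on all 24 arrays with limma 3.58.1 (lmFit, contrasts.fit, eBayes) in R 4.3.3 with data.table (version 1.17.8), with Benjamini-Hochberg adjustment across the tested probes. The contrast was MBZ minus BBC at 36 h, minus MBZ minus BBC at 12 h, at an adjusted p under 0.20. The fits were tested on simulated data with independent noise of the same spread in all groups. That setting could not show how unequal spread or single outlying arrays act on the calls. The number of arrays limits the precision. Values between probes were not compared.

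Probes were named through their accession or gene ID in the RefSeq gene list of GRCz12tu, by which 14010 of 31507 probes received a name, and the medians, effects and calls at 12 h and 36 h of a list took the probe of each gene with the highest mean signal, while a list gene counted as called for the difference where any probe was. Named were the 12 called genes with the most positive and the 12 with the most negative difference among probes well above background on every array of any 1 of the 4 groups, called list members, named reversals, the 6 genes called at both times with the smallest p at 12 h, and the 3 unnamed probes at either end. Members and lists were chosen with earlier results of these data known. Alternatives covered the threshold, samples, normalization, background correction (normexp on the median pixel signal), filters, replicate and slide blocks, array weights, prior variance and leaving out each array. A search of promoters for motifs was planned and is not reported.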

Additional observations from a re-analysis of the deposited data

Results flagged for a closer look

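The MBZ effect differed between the exposure times by the test of the difference itself for 114 probes.

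In 184 groups of 4 arrays of the named probes, 10 held a value that stood apart from the others by Dixon's criterion, and chance alone flags about 1 in 20 groups. Of the arrays of MBZ eyes at 36 h, replicate 4 stood above the others for fam210ab, at -4.83, and for xrn2, at -0.95, replicate 1 below the others for fosab, at 0.19, and replicate 2 below them for probe A_15_P179696, at -5.71. Of MBZ eyes at 12 h, replicate 2 stood below the others for dapp1, at -6.23, and above them for map3k7cl, at -5.63, replicate 3 below them for kctd16a, at -7.70, and replicate 4 above them for probe A_15_P109600, at -4.92. Of BBC eyes, replicate 3 at 36 h stood above the others for probe A_15_P402330, at -2.48, and replicate 3 at 12 h below them for c2cd4a, at -1.92.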

How the results depend on the processing

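Of the 40 named called probes, 20 passed in every fit without 1 array, and 16 of these also under every alternative but normexp and the threshold of 0.05. With each processing alternative tried in turn, 431 of 588 differences of these probes kept their call, 154 lost it and 3 turned. Without single arrays, 480 of 640 kept it, 160 lost it and none turned. Of the 16 fits without 1 array, the call was lost in 14 for xrn2 and in 12 for prr15lb, bsk146, cxcl14 and kcnn1b. It was lost in 10 for lratd2b, hamp, asic4b and cnot9, in 9 for dapp1 and ifi27.1 and in 7 for irx4a. Probes that were dim in a group and probes resting on 1 array limit the reading, and each exposure time was scanned on its own day.

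Counts follow for all changed probes, then late, fading and reversed ones, then probes called at 12 h and at 36 h, against 114, 83, 8, 23, 101 and 1770. At an adjusted p under 0.05 they were 29, 25, 1, 3, 51 and 331. With normexp they were 1, 1, 0, 0, 4 and 15, where the median SD between replicates at 24 h was 0.92 in MBZ and 1.07 in BBC eyes, against 0.28 and 0.29 in the reported fit. With normexp on the 16 arrays alone, chosen after seeing the data, they were 8, 7, 0, 1, 30 and 165. The 16 arrays alone gave 67 changed, 38 late and 3 fading probes. Without the filter there were 52 changed, 44 late, 2 fading and 6 reversed probes. With all 4 flags required on 24 arrays, 0 faded and 59 were called at 12 h. Array weights gave 1463, 999, 222, 224, 257 and 3972. The trend and robust prior gave 4 fading probes. With an effect called present at an adjusted p under 0.20, 3 of the probes reversed. Quantile normalization gave 3 fading probes and 50 positive against 64 negative differences, and the authors' values 5 fading and 62 against 64, where the reported fit gave 36 against 78.

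Without single arrays the counts ranged over 45 to 589, 34 to 448, 2 to 37, 7 to 103, 69 to 178 and 636 to 3634. All changed probes numbered 589 without replicate 4 of MBZ at 36 h, 203 without replicate 3 of BBC at 36 h, 64 and 45 without replicates 1 and 2 of BBC at 36 h, 51 and 57 without replicates 1 and 4 of MBZ at 12 h, and 46 and 72 without replicates 2 and 3 of BBC at 12 h.

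Samples with the same replicate number deviated together with correlations of 0.03 to 0.13 at 12 h, 0.15 to 0.43 at 24 h and -0.02 to 0.37 at 36 h, and not every sample correlated best with its own number, so the numbers were not taken to pair the samples. With the replicate block, 259 probes changed, 172 of them late, 30 fading and 56 reversed. With the replicate block within each exposure time the counts were 685, 429, 92 and 153, with 159 at 12 h and 3811 at 36 h. With the slide as a block they were 276, 186, 22 and 65, with 2684 at 36 h.

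Differences that turned were those of prr15lb, at -0.0765 with normexp on 24 or 16 arrays, stmn4l, at -0.30 in the authors' values, and ctsl.1, at 0.0195 with array weights and, without single arrays, at -0.25 to 0.0716. The cause was not tested. That of syk was 1.72 in the authors' values, which keep the uneven spot of BBC at 12 h. Of 725 medians of lists recomputed under these settings, which were added after seeing the data, 716 moved by less than the spread between replicates.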
